A study of Gallus gallus with 6 samples.

Results

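RAB GTPases and the proteins that switch them on and off were followed in the forelimb bud of the chick, in tissue that had carried a bead with FGF2 or with phosphate-buffered saline (PBS). The genes were taken from the array's annotation by symbol: RAB followed by a number, RAB regulators and effectors, the DENN-domain and TBC-domain families, the RIN activators, and MADD. This gave 102 genes of 13051 with a symbol, read by 241 of 38439 probe sets. Each gene was read from its brightest probe set over the 6 arrays, and all 5 probe sets of MADD (Entrez Gene 423184) are given. MADD was included because one of its probe sets was already known to differ on these arrays.

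In both groups the tissue came from wild-type embryos of *Gallus gallus* whose forelimb bud mesoderm had received a heparin acrylic bead at Hamburger-Hamilton stage HH23, soaked in recombinant human FGF2 (fibroblast growth factor 2) or in PBS. The tissue around the bead was taken 24 h later, at HH25, and total RNA was measured on Affymetrix Chicken Genome arrays. Each group had 3 arrays, every one hybridized with the pooled RNA of several embryos, and the study repeated the experiment on separate days, so the errors below describe the spread between pools. The comparison asks how these genes stood after a long exposure to FGF, which the study used to induce SHH, the signal of the zone of polarizing activity.

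RAB proteins are small GTPases that sit on the membranes of the cell and direct the budding, movement and docking of vesicles. Activators (guanine nucleotide exchange factors, GEFs) load them with GTP, GTPase-activating proteins (GAPs) return them to the inactive state, and effectors carry out the work of the active form. In the limb they matter to signaling as well as to housekeeping, because receptors for growth factors are taken up and recycled through RAB-marked endosomes, and because RAB23 in the mouse is a negative regulator of Hedgehog signaling. MADD is a DENN-domain activator of RAB3 and RAB27 proteins, which act in vesicle docking and secretion. It also carries a death domain that binds a TNF receptor.

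The arrays had medians of 4.75 to 4.81 on the log2 scale. Probe sets not named after chicken transcripts, most of them for viral sequences, had a median level of 2.38, and their 95th percentile, 3.57, is called the background here. The general limb mesenchyme marker PRRX1 lay between 13.02 and 13.38 on every array, and the forelimb factor TBX5 between 11.08 and 11.52. Not all of the 7 limb mesenchyme markers measured were this steady. MSX1 had means of 8.18 with PBS and 10.30 with FGF2, with no overlap (adjusted p = 0.0681, limma). The difference, FGF2 minus PBS, was 0.34 for HAND2, -0.34 for MEIS1 and -0.53 for GREM1, all with overlapping values. It was 0.0078 for TWIST1, 0.10 for PRRX1 and -0.16 for TBX5, the last with no overlap. The hindlimb factor TBX4 was at 2.32 to 2.35, under the background, whereas PITX1, another hindlimb factor, was at 6.51 to 7.68. Across all 38439 probe sets, 4 passed an adjusted p of 0.05, which is 0.0104% of them.

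MADD was lower around FGF2 beads. The second brightest of its probe sets gave log2 values of 8.97, 9.04 and 9.05 with PBS, against 8.35, 8.38 and 8.41 with FGF2. The replicates of each group lay within a narrow band and the groups were well apart. The fall was 1.56-fold (log2 fold change -0.64 ± 0.032 SE; 95% interval -0.72 to -0.56; adjusted p = 0.0415, limma). Of all probe sets 0.0026% were called lower, and no other probe set among the 241 of the family was called in either direction. Since MADD was included for this difference, its call is no evidence about the family. Leaving out any 1 of the 6 arrays kept the size (-0.66 to -0.62) but ended the call (adjusted p = 0.0853 to 0.213). The call was also lost in limma with the replicate number as a block (adjusted p = 0.245). Of the 25026 probe sets that were lower in FGF2 tissue, 0 had a smaller p. This rank restates why MADD was included and adds no support to the difference. In bulk tissue, fewer cells that express a gene and less RNA per cell cannot be told apart.

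The brightest probe set of MADD pointed the same way without passing the test. It read 11.58, 11.53 and 11.33 in PBS tissue against 11.00, 10.79 and 11.05 in FGF2 tissue. The groups again did not overlap, but the spread within each was wider (SD 0.136 and 0.14, n = 3) than for the called probe set (0.042 and 0.028). MADD was 1.44-fold lower here (log2 fold change -0.53 ± 0.099 SE; adjusted p = 0.304). Among all 13051 genes, 209 had a lower log2 fold change than this.

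The remaining probe sets of MADD were dimmer. One of them, which by its name derives from the same record as the called one, gave 4.68, 4.57 and 4.40 in PBS and 4.42, 4.16 and 4.25 in FGF2 tissue, a difference of -0.27 (adjusted p = 0.536). The dimmest gave 3.84, 3.91 and 3.75 against 3.76, 3.59 and 3.68, close to the background, with a difference of -0.15 (adjusted p = 0.566). The third brightest was the exception in direction, at 4.57, 3.93 and 4.66 against 4.14, 4.84 and 4.60. Its groups overlapped and its interval was wide (0.14, 95% interval -0.53 to 0.81; adjusted p = 0.742). Thus 4 of 5 probe sets were lower and 1 was higher, all of them reading one gene and sharing the same arrays, so they are not independent. The mean over all MADD probe sets was lower by 0.29 (adjusted p = 0.15).

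**Figure D1:**
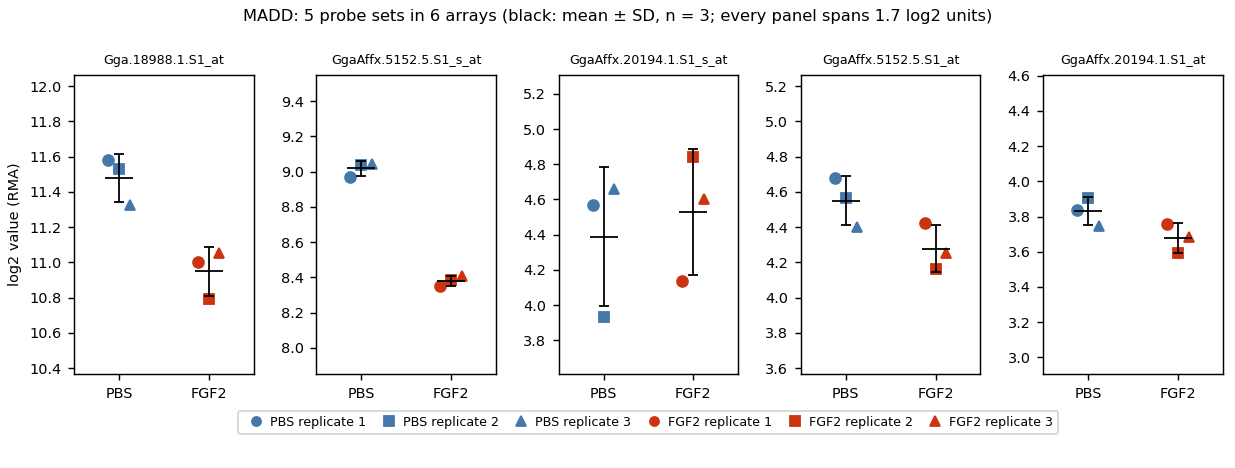
Log2 values of the 5 MADD probe sets (1 panel each, brightest at left) in the 3 PBS arrays (blue) and 3 FGF2 arrays (red), with mean ± SD in black; marker shape gives the replicate number. The 2 panels at left show groups that do not overlap, with means lower in FGF2 tissue by 0.53 and 0.64 log2 units, and the other 3 panels show groups that do.

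The partners of MADD gave no call in either direction. RAB3B, the measured GTPase of the RAB3 family, gave 5.58, 6.38 and 6.32 in PBS and 6.38, 6.45 and 6.10 in FGF2 tissue. A single low PBS array set its difference of 0.22 (95% interval -0.40 to 0.83; adjusted p = 0.654). RAB27A, a GTPase of lysosome-related organelles and secretory granules, gave 10.05, 10.24 and 10.06 with FGF2 against 10.05, 10.02 and 10.01 with PBS (0.09; adjusted p = 0.644), its lowest FGF2 array level with the highest PBS array. A further probe set of the gene showed a larger difference of 0.30 (adjusted p = 0.479), again with no overlap. RAB3GAP1 and RAB3GAP2, the subunits of the complex that acts on RAB3 and RAB18, gave -0.02 and 0.12. The kinesins KIF1A and KIF1B, motors that MADD links to RAB3 vesicles, gave -0.12 and 0.19, and the TNF receptor TNFRSF1A, to whose death domain MADD binds, gave -0.04. SYTL2, a RAB27 effector of granule docking, measured 5.37, 5.54 and 5.39 with PBS against 5.95, 5.70 and 5.76 with FGF2, higher by 0.37 with no overlap (adjusted p = 0.363), but by 0.18 as the mean of its probe sets.

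As a family, the genes were evenly divided. Of 102 genes 51 were higher and 51 lower in FGF2 tissue, with a median log2 fold change of 0.0007, against -0.013 over all genes, and no gene passed an adjusted p of 0.05 by its brightest probe set in limma (0.00766% of all genes did). At an unadjusted p under 0.05 there were 17 genes, or 16.7%, against 12.3% of all genes. Of these, 13 were higher (12.7%, against 7.76% of all genes) and 4 lower (3.92%, against 4.58%). Repeating the quantile normalization made the split 9 higher and 5 lower. The same step changed the split over all 38439 probe sets from 2152 higher and 1281 lower to 1483 higher and 1553 lower. The values of the groups did not overlap for 21 genes, or 20.6%, against 15.9% of all genes. Among these, 15 lay wholly above the PBS values (9.11% of all genes did) and 6 wholly below (6.8% of all genes). Nearly all of the family was detected: 93 of the 102 genes lay above the background, and among those the share at an unadjusted p under 0.05 was 18.3%, against 15.9% of all genes above the background. Without MADD the share at an unadjusted p under 0.05 was 15.8% (16 genes).

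The differences were small. 2 genes differed by more than 1.5-fold, RAB36 and TBC1D8B, which is 1.96% of the family against 2.45% of all genes. For 65 of the 102 genes the 95% interval lay wholly within a 1.25-fold change in either direction (63.7%, against 61.8% of all genes). Among the GTPases 5 of 50 (10%, against 12.3% of all genes) had an unadjusted p under 0.05, and their median absolute difference was 0.043, against 0.07 over all genes. The regulators and effectors had 12 of 52 (23.1%) and 0.101. Over all genes above the background, the same figures were 15.9% and 0.094. The difference between GTPases and regulators was not tested, and 8 of the 50 GTPases but 1 of the 52 regulators and effectors lay under the background.

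**Figure D2:**
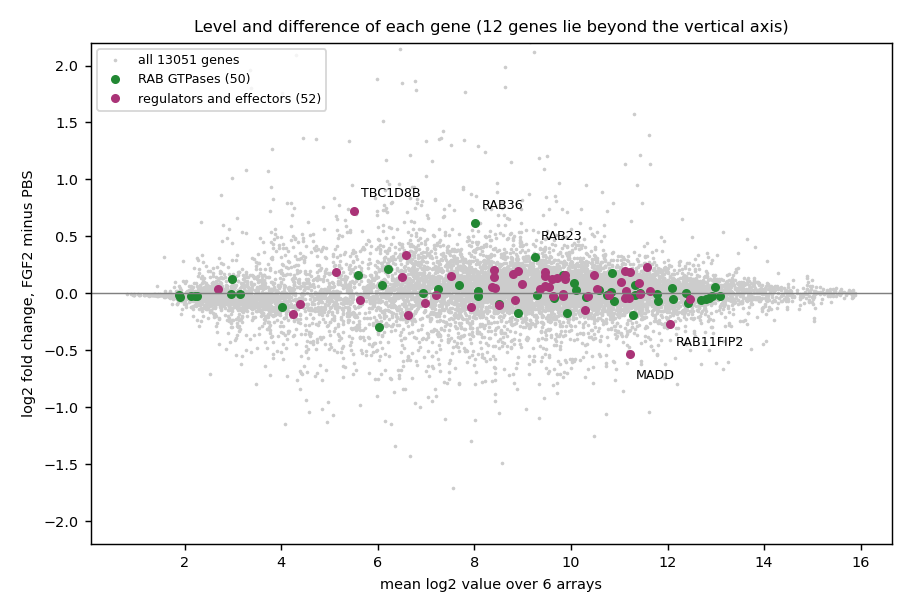
Mean log2 value over the 6 arrays (horizontal) against the log2 fold change, FGF2 minus PBS (vertical), for all 13051 genes (grey), the 50 RAB GTPases (green) and the 52 regulators and effectors (purple); 12 genes lie beyond the vertical axis. TBC1D8B (0.72) and RAB36 (0.62) lie highest and MADD (-0.53) lowest among the family, while most of its genes lie close to 0.

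Among the 16 activators, 3 had an unadjusted p under 0.05 (18.8%, against 12.3% of all genes). MADD was the only lower one (6.25%, against 4.58% of all genes), and RIN2 and DENND5A were higher (12.5%, against 7.76%). All 16 lay above the background, where the shares over all genes were 15.9%, with 5.80% lower and 10.1% higher. RIN2, an activator of RAB5, gave 9.42, 9.32 and 9.36 in PBS and 9.52, 9.53 and 9.60 in FGF2 tissue. Every FGF2 array was above every PBS array, with a log2 fold change of 0.18 ± 0.038 (SE; adjusted p = 0.341). Its second detected probe set gave 0.29 with no overlap, and the third was at background. DENND5A, an activator from the DENN family, gave 0.16 (adjusted p = 0.547), but its other probe set gave -0.19. In all, 9 activators were higher and 7 lower, and their median was 0.04.

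The GAPs of the TBC family included the gene with the largest positive difference of the family. TBC1D8B gave 5.30, 4.84 and 5.27 in PBS and 5.65, 6.20 and 5.73 in FGF2 tissue. Its groups did not overlap and the difference was 1.65-fold (log2 fold change 0.72 ± 0.197 SE; adjusted p = 0.442). This direction was not shared by all of its probe sets: one almost as bright gave 0.28, and another gave -0.04. TBC1D20, a GAP for RAB1, gave 6.21, 6.41 and 6.63 against 6.73, 6.92 and 6.61, with overlapping groups (0.34; adjusted p = 0.549), and its other probe set gave -0.0047. TBC1D31, a TBC-domain protein of centriolar satellites, lay at 8.82, 8.81 and 8.79 in PBS and at 9.04, 8.90 and 9.05 in FGF2 tissue (0.19 ± 0.047 SE; adjusted p = 0.387). TBC1D2B and TBC1D9 were higher by 0.16 and 0.13, likewise with no overlap. TBC1D22A was lower by 0.14, also with no overlap (adjusted p = 0.572). TBC1D2, a GAP for RAB7, gave 7.06, 6.48 and 6.62 against 6.22, 6.77 and 6.59, a difference of -0.19 that was no larger than the spread of the replicates (SD 0.305 and 0.279). Of the 27 GAPs 15 were higher and 12 lower, and their median was 0.04. An unadjusted p under 0.05 was met by 5 higher ones (18.5%, against 7.76% of all genes) and 0 lower ones (against 4.58%). All 27 lay above the background, where these shares over all genes were 10.1% and 5.80%.

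Prenylation, the step by which RAB proteins gain their lipid anchor, was represented by RABGGTB, the beta subunit of RAB geranylgeranyl transferase. It gave 11.41, 11.54 and 11.43 in PBS and 11.55, 11.74 and 11.76 in FGF2 tissue, higher by 0.23 ± 0.071 (SE; adjusted p = 0.482). The other RABGGTB probe set gave 10.78, 11.00 and 10.79 against 11.02, 11.16 and 11.10, a difference of 0.24. In both probe sets all FGF2 arrays exceeded all PBS arrays. CHM, the escort protein that presents RAB proteins to this enzyme, gave -0.09.

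RAB5, the GTPase of early endosomes, differed by 0.07 at most, while several proteins that act with it had higher values in FGF2 tissue without passing the test. RAB5A, RAB5B and RAB5C gave -0.02, -0.02 and -0.07. The 95% intervals were -0.08 to 0.04 for RAB5A and -0.17 to 0.04 for RAB5C, but wider for RAB5B (-0.25 to 0.20). RABEP1 (rabaptin-5), an effector of RAB5, gave 11.01, 11.04 and 10.99 in PBS and 11.12, 11.28 and 11.25 in FGF2 tissue (0.20 ± 0.047 SE; adjusted p = 0.378). The RAB5 activator GAPVD1 gave 8.70, 8.52 and 8.63 against 8.85, 8.85 and 8.99 (0.28; adjusted p = 0.370). Both, like RIN2, had no overlap between groups. RBSN (rabenosyn-5), an effector shared by RAB4 and RAB5, gave 0.17 with overlapping values (adjusted p = 0.544), and the activators RABGEF1 and RIN3 gave 0.06 each. EEA1, the tethering effector of RAB5, gave -0.02. Of others on the wider list that act with RAB5, USP6NL gave -0.17, APPL1 0.11 and APPL2 0.04, all with overlapping values. This grouping was made after the values were seen and has no test.

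By their brightest probe sets, the other GTPases of early endosomes differed by 0.18 at most, and none passed the test. RAB31, close to RAB22A in sequence and active between the Golgi and endosomes, was lower by 0.18 with no overlap (adjusted p = 0.553). It gave 10.03, 9.97 and 10.02 in PBS and 9.81, 9.71 and 9.96 in FGF2 tissue. Its further detected probe set pointed the other way, at 0.13. RAB4A, of the fast recycling route, gave -0.17 with overlapping groups. RAB14, RAB21 and RAB22A gave 0.06, 0.01 and 0.03. Both further detected probe sets of RAB21 pointed the other way, the lower of them at -0.21. The group of 8 early endosome GTPases was split into 3 higher and 5 lower ones (median -0.02).

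On the recycling route, RAB11A and RAB11B differed by little, and none of the measured RAB11 effectors passed the test. The values of RAB11A and RAB11B were 0.0014 and -0.01, with 95% intervals of -0.08 to 0.08 and -0.12 to 0.10. RAB11FIP2, an effector that ties RAB11 vesicles to myosin V, gave 12.22, 12.13 and 12.20 in PBS and 11.83, 11.88 and 12.05 in FGF2 tissue. The groups did not overlap, and it was 1.20-fold lower (log2 fold change -0.27 ± 0.066 SE; adjusted p = 0.388). The other probe set of RAB11FIP2 gave -0.18 with overlapping values. RAB11FIP1, another RAB11 effector, gave 0.13 and RAB11FIP4 gave -0.06, both with overlapping groups, and RAB11FIP5 lay under the background. RAB15, a GTPase of recycling endosomes, gave 5.38, 5.59 and 5.58 against 5.59, 5.69 and 5.74 (0.16; adjusted p = 0.612), its groups only just apart. MICALL1, an effector of RAB8 and RAB35 on recycling tubules, gave 10.96, 10.68 and 10.76 against 10.43, 10.23 and 10.62, lower by 0.38 with no overlap (adjusted p = 0.499).

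GTPases and regulators tied to Hedgehog signaling and the primary cilium, the organelle in which vertebrate cells read Hedgehog signals, were considered together because the study concerned SHH. RAB23 gave 9.07, 9.09 and 9.11 in PBS and 9.59, 9.32 and 9.32 in FGF2 tissue. The PBS arrays agreed closely (SD 0.021), all FGF2 arrays were above them, and the difference was 1.25-fold (log2 fold change 0.32 ± 0.082 SE; 95% interval 0.12 to 0.53; adjusted p = 0.405). RAB3IP (Rabin8), an activator of RAB8 at the base of the cilium, gave 11.21, 11.05 and 11.13 against 11.22, 11.44 and 11.31 (0.19; adjusted p = 0.548), with the lowest FGF2 array just above the highest PBS array. RAB34, which in the mouse is needed for cilia and Hedgehog signaling, gave -0.0047 with a 95% interval of -0.15 to 0.14, and RAB28, found at the cilium, gave 0.0039 (-0.16 to 0.17). TBC1D32, a ciliary protein required for Hedgehog signaling in the mouse, gave 5.07, 5.09 and 4.96 against 4.95, 5.67 and 5.06, where a single FGF2 array made the difference of 0.18 (adjusted p = 0.653). SHH itself was at 2.67, 2.56 and 2.95 in PBS and 3.54, 4.58 and 3.31 in FGF2 tissue. Only FGF2 replicate 2 lay above the background for SHH, so the arrays were not ranked by it.

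Among GTPases of the endoplasmic reticulum and the Golgi, RAB36 stood apart. RAB36, a Golgi protein related to RAB34, gave 7.54, 7.75 and 7.81 in PBS and 8.33, 8.42 and 8.21 in FGF2 tissue. The gap between the groups exceeded the range within either, and the gene was 1.53-fold higher (log2 fold change 0.62 ± 0.090 SE; 95% interval 0.39 to 0.84; adjusted p = 0.233). It had the smallest p among the brightest probe sets of the family. Its other probe set was at 2.28 to 2.38 on every array, under the background, and has no bearing on the difference. The remaining 12 genes of this group lay between -0.07 and 0.07. Of these, RAB33A and RAB39A lay under the background, and RAB19 had a wide interval (95% interval -0.57 to 0.72). RAB1B (-0.04) and RAB2A (-0.06) act between the endoplasmic reticulum and the Golgi. RAB6A (-0.05) is a GTPase of the Golgi, and RAB18 (95% interval -0.07 to 0.07) is known from lipid droplets. RAB33B, a Golgi GTPase with a role in autophagy, gave -0.07 by its brightest probe set, whereas a further probe set gave -0.35 with no overlap (10.39, 10.56 and 10.11 in PBS tissue against 9.96 to 10.04 in FGF2 tissue; adjusted p = 0.50). TRAPPC12, a subunit of a TRAPP complex, which includes activators of RAB1, gave 9.28, 9.78 and 9.24 against 9.91, 9.98 and 9.94, higher by 0.51 with no overlap (adjusted p = 0.464).

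Of 7 GTPases of late endosomes and lysosomes, 5 lay between -0.04 and -0.01, and RAB9A and RAB24 were on the higher side. Among the 5, RAB7B and RAB42 lay under the background, so their values near 0 do not show that they were unchanged. RAB9A, which serves transport from late endosomes to the Golgi, gave 10.70, 10.89 and 10.67 in PBS and 10.92, 10.96 and 10.92 in FGF2 tissue (0.18; adjusted p = 0.536). A second RAB9A probe set gave 0.12. RAB7A, the main GTPase of late endosomes, gave -0.03 with a 95% interval of -0.09 to 0.04. RAB24, linked to autophagy, gave 0.16 with overlapping groups. A dim further probe set of RAB7A gave 0.24 with no overlap.

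By their brightest probe sets, GTPases of exocytosis were mostly on the lower side, with a median of -0.07. RAB3B was the 1 higher gene of 6 (16.7%, against 45.5% of all genes). Of the 6, RAB12 alone had an unadjusted p under 0.05 (16.7%, against 12.3% of all genes). All 6 lay above the background, where these shares over all genes were 56.5% and 15.9%. RAB12, linked to the transport and degradation of receptors, gave 11.48, 11.31 and 11.37 against 11.15, 11.19 and 11.24, with no overlap (log2 fold change -0.19 ± 0.051 SE; adjusted p = 0.430). RAB8A, RAB8B and RAB10, which carry cargo from the Golgi to the plasma membrane, gave -0.08, -0.01 and -0.05. Of 3 further detected probe sets of RAB8A, 1 had the sign of the brightest, and the 1 of RAB8B had the opposite sign. Outside these groups, RAB40B, of the subfamily that carries a SOCS box, gave 6.14, 6.32 and 6.05 against 5.84, 6.10 and 5.68, with overlapping groups and a difference of -0.30 (adjusted p = 0.584). Its other probe set gave -0.10.

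**Figure D3:**
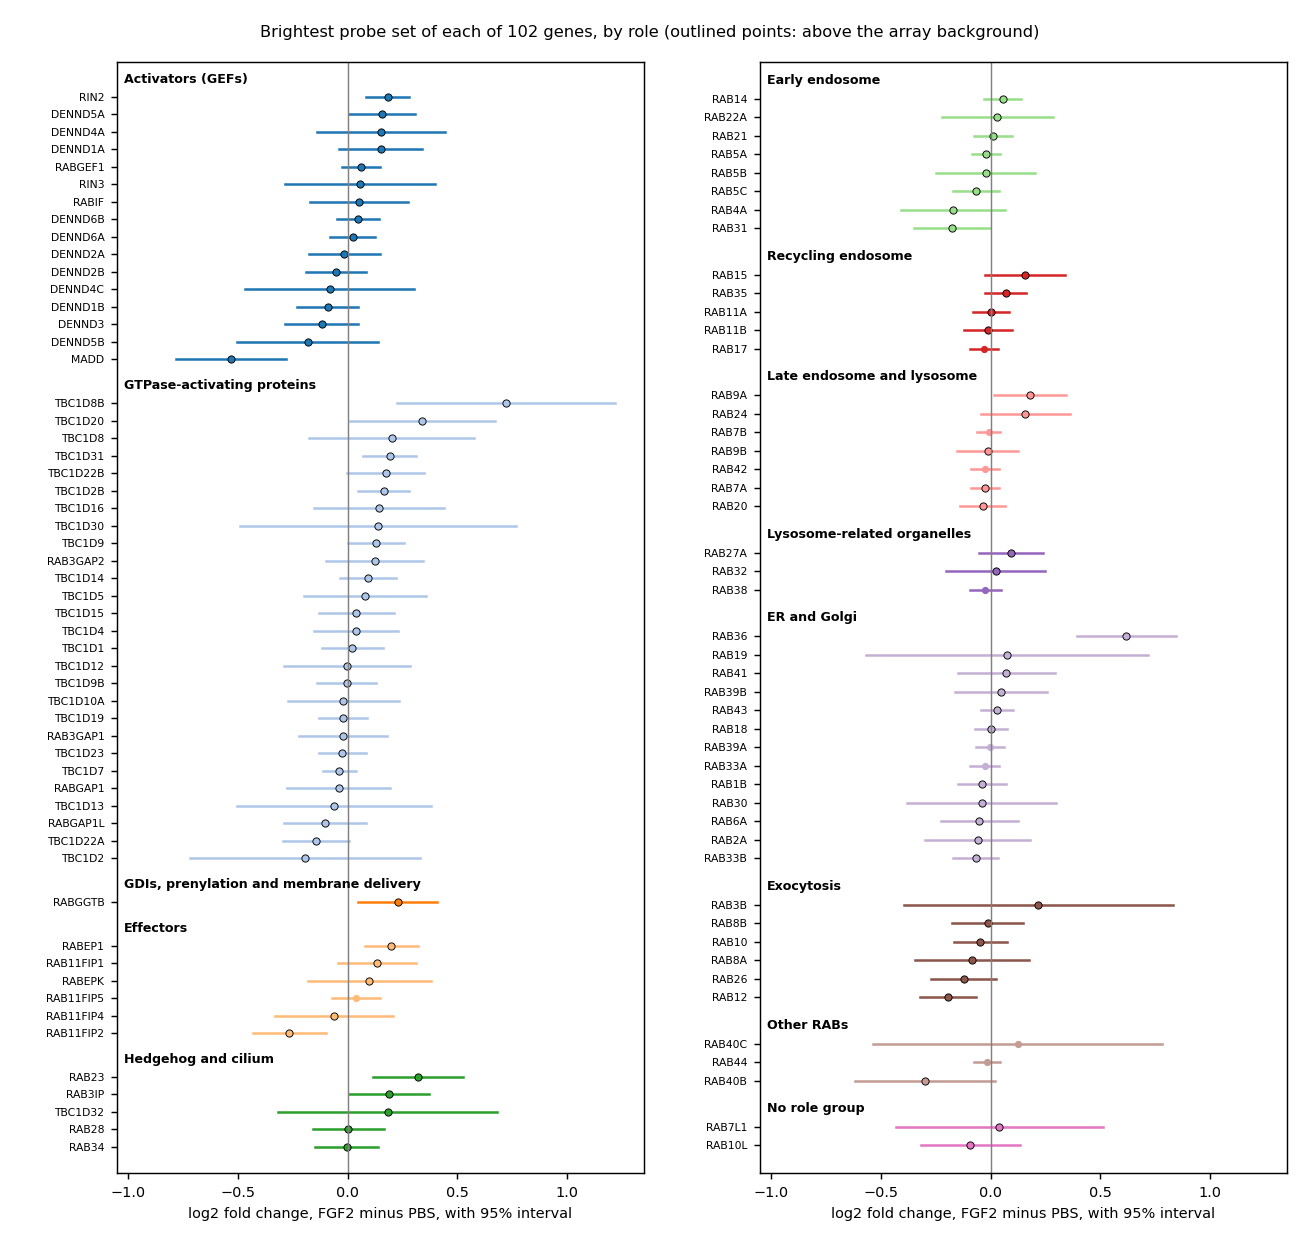
Log2 fold change, FGF2 minus PBS, of the brightest probe set of each of the 102 genes (points) with 95% intervals from limma (lines), grouped and coloured by role; points with a dark outline lie above the array background. Most intervals cross 0, with MADD (-0.78 to -0.28) on the lower side and RAB36 (0.39 to 0.84), TBC1D8B (0.23 to 1.22) and RAB23 (0.12 to 0.53) on the higher side.

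**Figure D4:**
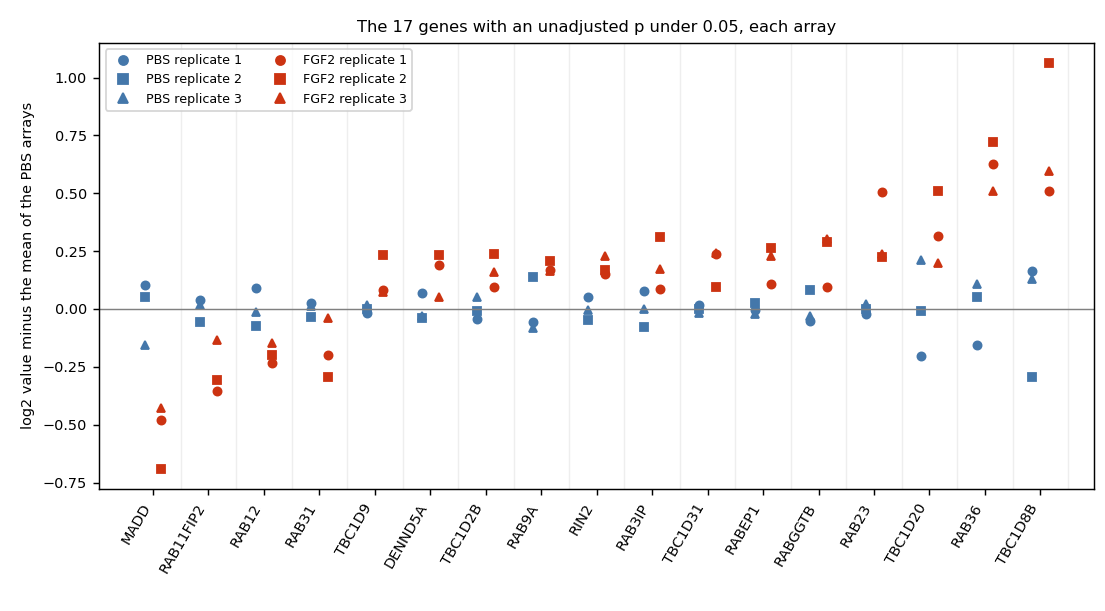
Log2 value minus the mean of the PBS arrays for the 17 genes with an unadjusted p under 0.05, ordered by log2 fold change; each point is 1 array, PBS in blue and FGF2 in red. MADD, RAB11FIP2, RAB12 and RAB31 lie below and 13 genes above the PBS mean; the groups overlap for DENND5A and TBC1D20 only.

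The wider machinery outside the family was measured for 59 of 73 listed genes, namely escort proteins, TRAPP subunits, further activators and GAPs, and effectors. There were 34 higher and 25 lower ones (median 0.015), and 0 passed an adjusted p of 0.05. At an unadjusted p under 0.05 there were 10 (16.9%, against 12.3% of all genes). Of these, 7 were higher (11.9%, against 7.76% of all genes) and 3 lower (5.08%, against 4.58%). Of the 59, 54 lay above the background. Over all genes above it the share was 15.9%, with 10.1% higher and 5.80% lower. SBF2, a DENN-domain protein and activator, gave -0.24 (adjusted p = 0.553), but -0.15 without PBS replicate 2 and -0.05 as the mean of its probe sets. The TRAPP subunits TRAPPC2 and TRAPPC3 were higher by 0.13 and 0.10 with no overlap.

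Probe sets of one gene often disagreed at this size of difference. There were 65 genes with more than 1 probe set. Of their 139 further probe sets 92 lay above the background, and 64 of those had the sign of the brightest one. Pairs that matched in direction with no overlap of the groups were those of RABGGTB, RIN2, RAB27A and the GAP TBC1D22B (0.17 and 0.46). The brightest pair of MADD matched likewise. For the brightest RAB27A probe set, the lowest FGF2 array and the highest PBS array were both at 10.05. These pairs were picked after the values were seen, and 15.9% of all genes had no overlap by their brightest probe set. The probe sets that gave RAB36 and TBC1D8B their values belong to a class that can match several transcripts, as does the called probe set of MADD. So do the brightest probe sets of many other genes, among them RAB31, RAB40B, RABGGTB, RAB3IP, TBC1D31, TBC1D9, TRAPPC2, TRAPPC3 and TRAPPC12. Without that class TBC1D8B gave -0.04, and RAB3IP, TBC1D31 and TRAPPC12 had no value. RAB36 was left with its probe set under the background and so without a usable value.

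**Figure D5:**
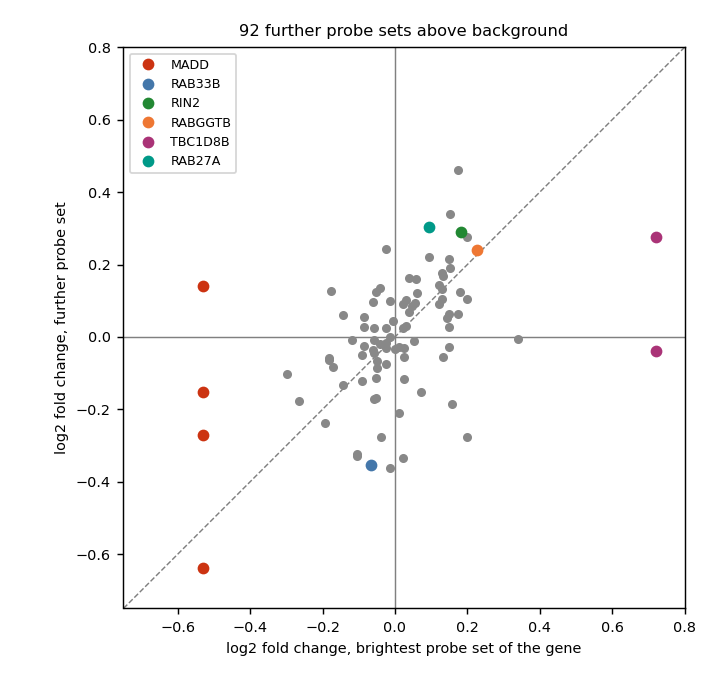
Log2 fold change of the brightest probe set of a gene (horizontal) against that of each further probe set of the same gene above the background (vertical; 92 points), with selected genes coloured and the line of equality dashed. The points of RABGGTB and RIN2 lie near the line, those of MADD are spread from -0.64 to 0.14, and those of TBC1D8B (0.28 and -0.04) lie well below it.

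Markers of some other cell types moved with the groups. Of 8 macrophage markers 8 were higher in FGF2 tissue, 6 of them at an unadjusted p under 0.05 (7.76% of all genes were). Their summed linear level ran from 667 to 752 with PBS and from 1212 to 1844 with FGF2. CYBB and MARCO lay under the background. Of 8 skeletal muscle markers 7 were lower, 3 at an unadjusted p under 0.05 (4.58% of all genes were). Their summed levels were 45903 to 49874 against 35677 to 46905. Taken as the median of the markers relative to PBS, the muscle level of the FGF2 arrays was -0.44, -0.56 and -0.07. In the same arrays the called probe set of MADD read 8.35, 8.38 and 8.41, and the brightest one 11.00, 10.79 and 11.05. A relation between these values was not tested. Nerve and Schwann markers were divided, with 3 higher, 2 lower and a median of 0.04. STMN2 was higher by 2.44 and SOX10 lower by 0.78. Their summed levels were 1458 to 1829 against 2234 to 3151, a rise that rests on STMN2 (mean 8.16 with PBS, 10.61 with FGF2). Of 5 cartilage markers 4 were lower, with a median of -0.45 and 0 at an unadjusted p under 0.05. Of 5 melanoblast markers 5 were lower, with a median of -0.04 and 0 at an unadjusted p under 0.05. DCT and TYR among them lay under the background. RAB38, a GTPase of pigment cells, lay under the background, and RAB32, which acts with it in melanosomes, gave 0.02 (95% interval -0.20 to 0.25). The part of these cell types in the values of MADD, RAB36, TBC1D8B and RAB23 was not tested.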

How the data were processed

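Total RNA of 6 pools was measured on Affymetrix Chicken Genome arrays, and the deposited table holds log2 values, which per the submitters' processing notes the authors obtained by RMA (a background-corrected, quantile-normalized summary of each probe set). RMA makes the arrays alike in their distribution, so differences are relative to the array as a whole. Its version was not stated, and log base 2 was inferred from the range (0.128 to 15.95). Scanner files were not used here. Of 38535 probe sets, 96 controls were left out. Titles gave the groups. FGF2 minus PBS was tested with lmFit and eBayes (limma 3.58.1, R 4.3.3), two-sided, and p-values were adjusted by Benjamini-Hochberg across 38439 probe sets. Simulated data served to test the script. No exact permutation p under 0.1 can be had from 3 arrays against 3, and the small number of arrays sets the precision.

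A gene is an Entrez Gene identifier, except that RAB41, listed under 2, was read once. The reference gene table held 100 of the 102 identifiers and updated 0 symbols. Of the probe sets tested, 27168 had 1 symbol, and the 177 with several named no gene. Sequences and coordinates are not given. Named genes are MADD, those with the largest differences overall and per role, the Hedgehog and cilium group, and 6 of the wider pathway; any other was named after its values were seen. Genes, lists and roles were chosen with earlier results of these data known. As alternatives, the replicate number was used as a block, every array was left out in turn, quantile normalization was repeated, arrays were centred on their medians, dim probe sets were dropped (19219 kept), a variance trend with robust fitting was used, classes that can match several transcripts were dropped (10468 probe sets), and a gene's probe sets were averaged.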

Additional observations from a re-analysis of the deposited data

How the results depend on the processing

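The called MADD probe set kept its direction in all 11 alternatives that gave it a value and passed an adjusted p of 0.05 in 4 of them, quantile normalization again, median centring, brighter probe sets only and the variance trend (adjusted p = 0.0266 to 0.0441). With the replicate block the call was lost (-0.64; adjusted p = 0.245). Correlations of deviations between same-numbered arrays were -0.27, 0.04 and -0.22, which gave no sign that the replicate numbers pair the arrays. With 3 arrays per group these correlations cannot exclude pairing, and no label ties a number to a day. Leaving out any 1 array also ended the call, with fewer arrays to estimate the spread (-0.66 to -0.62; adjusted p = 0.0853 to 0.213). The dim MADD probe set that was higher in FGF2 tissue gave -0.087 to 0.33 with 1 array left out, turning without PBS replicate 2 (-0.087) and without FGF2 replicate 2 (-0.02).

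The count of genes past an adjusted p of 0.05 was 0 in all 13 alternatives. Genes higher at an unadjusted p under 0.05 numbered 8 without the classes that can match several transcripts, where 93 genes were left, and 8 to 13 with 1 array left out (8 without PBS replicate 1 or 3); the replicate block gave 11 higher and 5 lower. The median of the family ran from -0.01 to 0.02. Directions turned without those classes for RAB31 (0.13) and TBC1D8B (-0.039), where another probe set of the gene took the place of the brightest, and for RAB28, whose main value was 0.0039, after quantile normalization again (-0.056) and median centring (-0.0035). Without the classes that can match several transcripts, RAB36 was left with a probe set under the background (-0.035), so its difference was not measured. With 1 array left out, RAB28 ran from -0.042 to 0.065, RAB34 from -0.038 to 0.057, RAB3B from -0.041 to 0.36 and TBC1D32 from -0.038 to 0.32. Over all probe sets, the 4 calls at an adjusted p of 0.05 became 1 with the replicate block, 6 with median centring, 7 with quantile normalization again, 40 among brighter probe sets, 39 with the variance trend, 7 for gene means and 0 to 3 with 1 array left out (0 without any 1 PBS array).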
